A study of Homo sapiens with 6 samples.

Results

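Genes of the nuclear pore complex and of the receptors that carry proteins and RNA through it were followed in a ribosome footprint comparison of NCI-H1299 cells. They were chosen by gene symbol, with no measured value in the rule, although earlier results of these data were known when the rule was written: nucleoporins, importins, importin alpha adaptors, exportins, transportins, the proteins of the Ran cycle and the mRNA export receptor NXF1. The rule found 57 genes among the 15243 in the authors' deposited table. Of these, 4 were nucleoporins anchored in the nuclear membrane, 23 were soluble nucleoporins and 30 were transport receptors or Ran cycle proteins. NUP210L, a relative of NUP210, was looked for and has no entry among the 15243.

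The nuclear pore complex is the channel through which proteins and RNA pass between nucleus and cytoplasm. Membrane nucleoporins anchor it where the inner and outer nuclear membranes fuse, scaffold nucleoporins form stacked rings, and nucleoporins rich in phenylalanine-glycine repeats fill the channel and bind the passing receptors. Importins and exportins load and release cargo according to whether the small GTPase Ran carries GTP or GDP. RCC1, the exchange factor on chromatin, keeps Ran loaded with GTP in the nucleus, and RANGAP1 with RANBP1 and RANBP2 triggers GTP hydrolysis at the cytoplasmic side.

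Ribosome footprint sequencing (Ribo-seq) reads the stretches of mRNA that are covered by ribosomes. The 6 samples comprised 3 labelled shALDH18A1, with a short hairpin RNA against ALDH18A1, and 3 labelled shControl, which the design text calls puro. ALDH18A1 encodes P5CS, a mitochondrial enzyme of proline synthesis, and the series asks how it regulates translation as an RNA-binding protein. NCI-H1299 is an established line of human non-small cell lung carcinoma, and no other treatment, hairpin sequence or number of clones is given in the labels. The labels do not say whether the 3 samples of a group were separate cultures or infections, so the p-values measure only the spread between these samples, which may be technical.

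The values came from a single comparison made by the authors, with a mean normalized count, a log2 fold change, its standard error (SE) and p-values for each gene. Values of single samples were not analysed here. The sequencing depth behind each value is therefore unknown, and the ± values are the table's own SEs. Whether the fold compares footprint counts or translation efficiencies is not stated in the sources used here. The authors' deposited table is named DTEG, an abbreviation that alone does not settle this. Which group is the numerator is not stated in those sources either. Higher and lower therefore give the sign in the authors' deposited table, and they do not say which of shALDH18A1 and shControl had more. ALDH18A1 itself stood at −0.19 ± 0.12 in the authors' deposited table (adjusted p = 0.173), which does not settle the direction either. The target of the hairpin was thus not called, and the values used here do not show whether it was depleted. Of markers of the labelled cell type, the keratins KRT8 and KRT18 had mean normalized counts of 6396 and 6869 in the authors' deposited table, and the mesenchymal gene VIM had 22046. KRT8 (0.41 ± 0.08) and KRT18 (0.76 ± 0.10) were themselves called higher and VIM (−0.28 ± 0.04) lower in the authors' deposited table, and their part in the values below was not tested. EPCAM (11.4), CDH1 (1.95) and the lung lineage factor NKX2-1 (3.24) were near the bottom of the range in the authors' deposited table. KRT19, the surfactant genes SFTPB and SFTPC, NAPSA and the blood cell gene PTPRC had no entry. PECAM1 of endothelium (1.56) and COL1A1 of fibroblasts (26.9) were low in the authors' deposited table.

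Soluble nucleoporins were mostly called lower. The 4 membrane nucleoporins all had a positive sign, and 3 of them were called higher. A gene was called where its deposited adjusted p was under 0.05. Of the 57 genes, 30 were called lower, 12 higher and 15 were not called. Over all genes in the authors' deposited table, 29.4% were called lower, 28.9% higher and 58.4% either way. Most of the 57 are abundant: 54 were at or above the median mean normalized count, where the authors' deposited table has 40.9% called lower, 30.9% higher and 71.8% either way. Among those 54 abundant members, 30 were called lower, 11 higher and 13 were not called. The lower calls thus made up 55.6% of the abundant members, and the higher calls 20.4%. The median log2 fold change of the 57 was −0.28, against −0.10 over all abundant genes and 0.02 over all genes. The differences were of modest size. None of the 57 was called with a change of 1 or more on the log2 scale, which 23.7% of all genes and 19.2% of the abundant ones reached in the authors' deposited table. KPNA7, marked down by the authors on an unadjusted p, had a mean normalized count of 4.54, a log2 fold change of −2.49 ± 1.24 and an adjusted p of 0.0732 in the authors' deposited table.

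All 4 membrane nucleoporins had a positive sign, as did 3388 of the 7622 abundant genes. Of the 4, 3 were called higher (75%), against 30.9% of the abundant genes. POM121 and POM121C, copies of one another, may not be separate measurements. NDC1, a multi-pass protein needed to insert pores into the nuclear envelope, was higher by 0.91 ± 0.17 in the authors' deposited table, with a 95% interval from 0.57 to 1.24 and an adjusted p of 4.46e-07. POM121, which has a single membrane segment and a long tail of phenylalanine-glycine repeats, was higher by 0.36 ± 0.06 in the authors' deposited table (adjusted p = 3.30e-08). Its close relative POM121C was higher by 0.23 ± 0.07 in the authors' deposited table (adjusted p = 0.00233). NUP210, a large glycoprotein whose bulk lies between the nuclear membranes, had 0.20 ± 0.10 in the authors' deposited table and missed the threshold with an adjusted p of 0.0611, although its unadjusted interval began at 0.01. NDC1 was the largest of the 4, and its interval did not overlap those of POM121, POM121C or NUP210.

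POM121 and POM121C lie on chromosome 7 of GRCh38, POM121 from 72879357 to 72951459 and POM121C from 75416786 to 75486299. They are copies of one another, so reads cannot always be assigned to a single locus, and how such reads were counted is not given. Their mean normalized counts of 2190 and 2242 in the authors' deposited table were close, and the difference between their log2 fold changes was 0.13 with an interval from −0.06 to 0.31. The intervals of such differences take the errors of the 2 genes as independent. The windows around their annotated starts, from RefSeq on GRCh38.p14, are shown because they display this duplication. POM121 is at chr7:72879107-72879406 on the plus strand and POM121C at chr7:75486250-75486549 on the minus strand, each from 250 bases before the start to 50 after it; POM121 has another annotated start that is not shown. Each window has 300 bases. Over 286 aligned bases 273 were identical, or 95.5%, and unaligned bases are left out of this share. The window of the other POM121 start was 73.6% identical to that of POM121C over 220 aligned bases. Capitals mark an ETS motif in each of the 2 windows shown.
POM121: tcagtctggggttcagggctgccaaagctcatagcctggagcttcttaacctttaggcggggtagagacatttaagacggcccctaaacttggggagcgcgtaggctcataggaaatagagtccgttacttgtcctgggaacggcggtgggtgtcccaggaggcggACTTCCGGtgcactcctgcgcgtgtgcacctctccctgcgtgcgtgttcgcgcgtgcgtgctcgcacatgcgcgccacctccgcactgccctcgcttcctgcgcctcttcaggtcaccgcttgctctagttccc
POM121C: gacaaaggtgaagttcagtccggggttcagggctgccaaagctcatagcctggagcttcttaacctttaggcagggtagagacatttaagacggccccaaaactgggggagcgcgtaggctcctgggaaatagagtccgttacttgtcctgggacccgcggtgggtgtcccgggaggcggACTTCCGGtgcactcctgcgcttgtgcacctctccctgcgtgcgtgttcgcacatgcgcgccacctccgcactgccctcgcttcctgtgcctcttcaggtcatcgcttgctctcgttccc

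Among the 23 soluble nucleoporins, 17 were called lower (73.9%), 1 higher (4.35%) and 5 were not called. The shares over the abundant genes were 40.9% lower and 30.9% higher. The soluble median log2 fold change was −0.51, against 0.29 for the 4 membrane nucleoporins. These 2 medians were 0.81 apart on the log2 scale, or 1.75-fold. Only 1 soluble nucleoporin, NUP43, lay above the lowest membrane value. For 17 of the 23 the whole 95% interval lay below 0.01, the lowest bound of any membrane member. These were the same 17 that were called lower, so this count repeats the calls. With finished comparisons and no values per sample, the difference between the 2 classes could not be tested over samples. The range of mean normalized counts was 731 to 2242 for the membrane class and 16.2 to 4143 for the soluble class in the authors' deposited table.

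**Figure D1:**
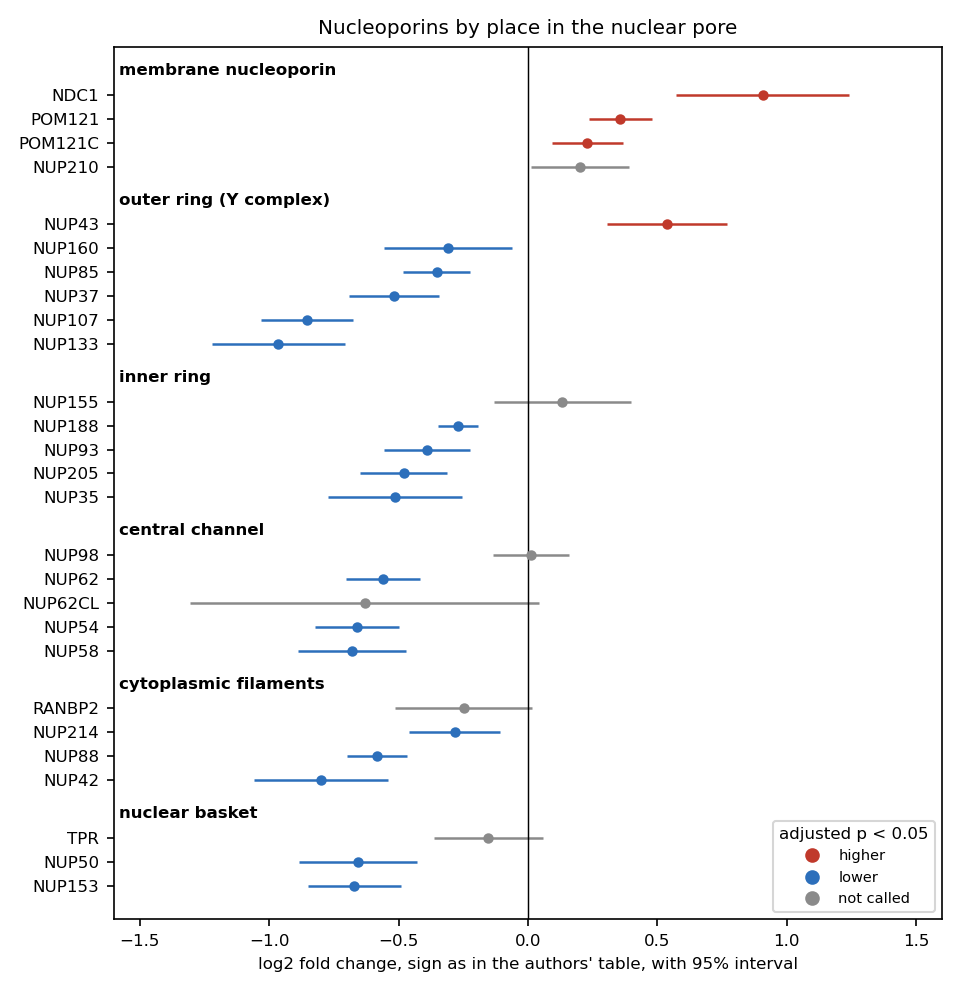
Log2 fold change of each nucleoporin (points, with 95% intervals from the deposited SE) by its place in the nuclear pore, with the sign of the authors' deposited table. All 4 membrane members lie right of 0, and 20 of the 23 soluble ones lie left of it.

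The outer ring, or Y complex, is the scaffold that coats the membrane on both faces of the pore. Of its 6 members 5 were called lower (83.3%) and 1 higher (16.7%), against 40.9% and 30.9% of the abundant genes. NUP133, which sits at the tip of the stalk and touches the membrane, was the lowest of all nucleoporins at −0.97 ± 0.13 in the authors' deposited table (adjusted p = 1.12e-12). Its direct partner in the stalk, NUP107, was at −0.86 ± 0.09 in the authors' deposited table (adjusted p = 3.76e-20). NUP37 (−0.52 ± 0.09), NUP85 (−0.35 ± 0.07) and NUP160 (−0.31 ± 0.13) were lower by less in the authors' deposited table. NUP43, a beta-propeller protein of the same complex, was the exception at 0.54 ± 0.12 in the authors' deposited table (adjusted p = 2.01e-05). Its interval, from 0.30 to 0.77, did not reach those of the other 5 members. Of the subunits outside the symbol rule, SEH1L was lower at −0.47 ± 0.08, SEC13 did not pass the threshold at −0.16 ± 0.10, and AHCTF1, the ELYS protein that brings the complex to chromatin, was called higher at 0.39 ± 0.10 in the authors' deposited table.

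The inner ring surrounds the channel and links it to the membrane. Of its 5 members 4 were called lower (80%) and none higher, against 40.9% and 30.9% of the abundant genes. NUP35, a membrane-binding member, was at −0.51 ± 0.13 in the authors' deposited table (adjusted p = 0.000245). The large scaffold proteins NUP205 (−0.48 ± 0.09) and NUP188 (−0.27 ± 0.04) and the hub NUP93 (−0.39 ± 0.09) were lower as well in the authors' deposited table. NUP188, whose span overlaps SH3GLB2, had the smallest adjusted p of the ring, 8.24e-11 in the authors' deposited table. NUP155 did not pass the threshold at 0.13 ± 0.14 in the authors' deposited table, with an interval from −0.13 to 0.40.

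The central channel nucleoporins NUP54, NUP58 and NUP62 form a single trimer of phenylalanine-glycine repeat proteins, and their values lay close together. NUP58 was at −0.68 ± 0.11, NUP54 at −0.66 ± 0.08 and NUP62 at −0.56 ± 0.07 in the authors' deposited table, with adjusted p of 8.37e-10, 7.32e-15 and 1.00e-13 in that order. The 3 intervals overlapped. NUP62CL, a related gene with a mean normalized count of 16.2, had −0.63 ± 0.34 in the authors' deposited table and was not called. NUP98, whose precursor is cut into the channel protein Nup98 and the Y complex protein Nup96, was at 0.01 ± 0.07 in the authors' deposited table. Its interval from −0.13 to 0.16 is narrow and lies apart from those of the 3 trimer genes. The annotated span of NUP62 overlaps ATF5 and IL4I1, and how far shared reads moved its value was not tested; the same holds for the other overlapping genes named here.

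On the cytoplasmic face, NUP42 was at −0.80 ± 0.13 in the authors' deposited table (adjusted p = 5.73e-09). NUP88, which anchors the filament complex and overlaps RABEP1, was at −0.58 ± 0.06 (adjusted p = 1.62e-21), and its partner NUP214 at −0.28 ± 0.09 (adjusted p = 0.00359), in the authors' deposited table. GLE1, which binds NUP42 and activates the helicase that releases exported mRNA, is outside the rule and was at −0.65 ± 0.08 in the authors' deposited table. RANBP2, the large filament protein that binds Ran and acts as a SUMO ligase, did not pass the threshold at −0.25 ± 0.13 in the authors' deposited table (adjusted p = 0.102). RANBP2 has near-identical copies named RGPD, and 7 of them had entries, from −0.67 to −1.03 in the authors' deposited table, all called lower. RGPD5 and RGPD6 had mean normalized counts of 2084 each in the authors' deposited table, so these rows may not be separate measurements. The value of RANBP2 itself is uncertain for the same reason. Its annotated span of 1122820 bases also overlaps CCDC138, EDAR, RGPD5, SEPTIN10, SH3RF3 and SOWAHC. In the nuclear basket, NUP153 was at −0.67 ± 0.09 and NUP50 at −0.66 ± 0.12 in the authors' deposited table, both called lower. TPR, the coiled-coil protein of the basket's struts, whose span overlaps PRG4, did not pass the threshold at −0.15 ± 0.11 in the authors' deposited table.

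The remaining nucleoporins that lie outside the rule were RAE1, AAAS and TMEM33. RAE1, which binds NUP98 in mRNA export, was lower at −0.28 ± 0.11, and AAAS, which NDC1 tethers to the pore, did not pass the threshold at −0.06 ± 0.09 in the authors' deposited table. TMEM33, a multi-pass membrane protein found with nuclear pores and in the endoplasmic reticulum, was called higher at 0.57 ± 0.20 in the authors' deposited table (adjusted p = 0.00890). Over all 7 such nucleoporins, 3 were called lower (42.9%), 2 higher (28.6%) and 2 were not called. These shares are near the 40.9% and 30.9% over the abundant genes.

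Other membrane proteins of the nuclear envelope were mostly higher. Of 18 listed proteins with membrane segments, 14 were called higher (77.8%), 1 lower (5.56%) and 3 were not called, with a median of 0.74. This median lies above the 0.29 of the membrane nucleoporins. Among the abundant genes 30.9% were called higher and 40.9% lower. TMEM201, an inner nuclear membrane protein, was the highest at 2.11 ± 0.15 in the authors' deposited table, and EMD, which encodes emerin, was the lowest at −0.36 ± 0.13. Why its value lay below those of the other listed proteins was not tested. The sterol reductase relative and lamin B receptor LBR was at 0.89 ± 0.10 in the authors' deposited table. SUN1 and SUN2, which bridge the envelope together with nesprins, were at 0.81 ± 0.09 and 0.68 ± 0.13 in the authors' deposited table. The 4 listed lamina proteins without a transmembrane segment went both ways: LMNB1 was at 1.55 ± 0.07, LMNA at 0.44 ± 0.11, LMNB2 at −0.13 ± 0.15 and BANF1 at −0.57 ± 0.09 in the authors' deposited table. LMNB2 was not called.

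**Figure D2:**
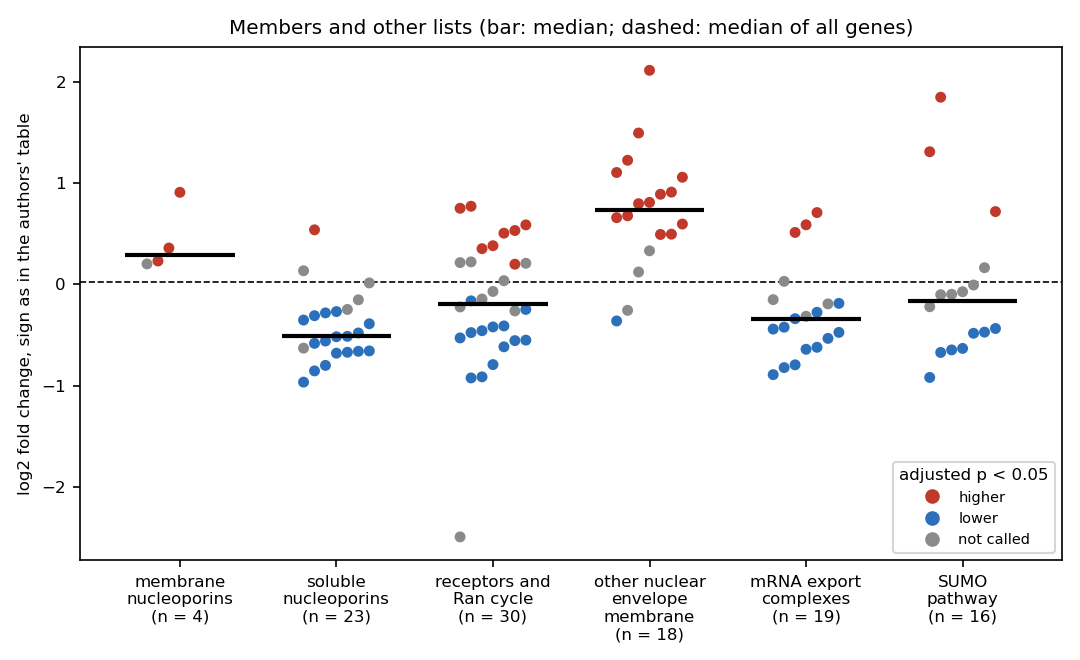
Log2 fold change of single genes (points, coloured by the call at an adjusted p under 0.05) in 3 classes of members and 3 other lists, with the sign of the authors' deposited table; black bars are medians and the dashed line is the median of all genes, 0.02. The medians run from −0.51 for soluble nucleoporins to 0.74 for other membrane proteins of the nuclear envelope.

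Of the 30 transport receptors and Ran cycle genes, 13 were called lower (43.3%), 8 higher (26.7%) and 9 were not called, which is near the shares of 40.9% and 30.9% over the abundant genes in the authors' deposited table. The 11 importers of the importin beta family each bind cargo or an adaptor and pass through the pore. Of these, 4 were called lower (36.4%), 3 higher (27.3%) and 4 were not called, also near those shares. KPNB1, importin beta itself, was higher by 0.38 ± 0.04 in the authors' deposited table (adjusted p = 2.27e-18), at a mean normalized count of 9926. IPO13, which also carries cargo out, was at 0.59 ± 0.16 and TNPO3, the carrier of serine- and arginine-rich splicing factors, at 0.50 ± 0.10 in the authors' deposited table. IPO7 was the lowest at −0.92 ± 0.14 (adjusted p = 7.85e-11), and IPO5, a carrier of ribosomal proteins and histones, was at −0.79 ± 0.06 (adjusted p = 1.34e-33) in the authors' deposited table. TNPO1, which carries hnRNP proteins, was at −0.46 ± 0.07 and IPO9, a histone carrier, at −0.42 ± 0.07 in the authors' deposited table. The members that were not called, IPO4, IPO8, TNPO2 and IPO11, ranged from −0.15 to 0.22 in the authors' deposited table. IPO11 overlaps LRRC70, and IPO4 overlaps REC8.

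The importin alpha adaptors, which bind the classical nuclear localization signal and hand it to importin beta, comprised 3 genes called higher, 3 called lower and 1 not called. Higher and lower calls were each 42.9% of the 7, against 30.9% and 40.9% over the abundant genes. KPNA1, KPNA5 and KPNA6, which form one subfamily, were all called higher. KPNA6 was at 0.77 ± 0.15, KPNA1 at 0.75 ± 0.11 and KPNA5 at 0.53 ± 0.17 in the authors' deposited table, with adjusted p of 5.65e-07, 1.10e-10 and 0.00497 in that order. KPNA3 and KPNA4, which form another, and KPNA2 were all called lower. KPNA7, the other gene of KPNA2's subfamily, was the member not called, with the low count and wide error given above, so that subfamily rests on a single gene. KPNA2 was at −0.62 ± 0.04, KPNA4 at −0.53 ± 0.07 and KPNA3 at −0.48 ± 0.13 in the authors' deposited table, with adjusted p of 2.96e-48, 2.81e-12 and 0.000580 in that order. The intervals of the higher 3 began at 0.19 or above, and those of the lower 3 ended at −0.22 or below, so they did not overlap. Within each of these subfamilies the intervals of the differences included 0. KPNA1 minus KPNA6 was −0.02 (interval −0.38 to 0.34), KPNA1 minus KPNA5 was 0.22 (−0.19 to 0.62), KPNA5 minus KPNA6 was −0.24 (−0.69 to 0.21) and KPNA3 minus KPNA4 was 0.05 (−0.24 to 0.34).

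KPNA2 and KPNB1 had the highest mean normalized counts of the 57, 10226 and 9926 in the authors' deposited table, and they moved opposite ways. These counts are not per length and so give no ranking of expression. The SE was 0.04 for each, against a median SE of 0.10 over the members.

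**Figure D3:**
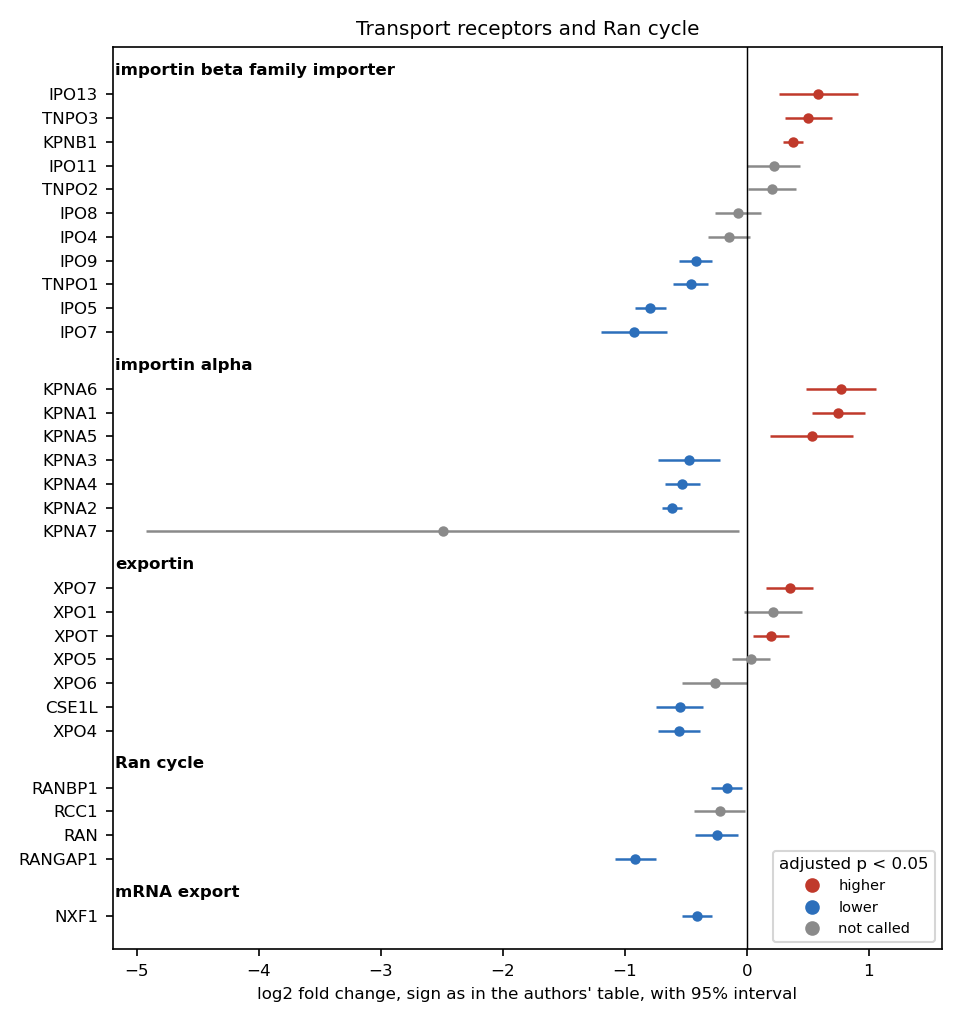
Log2 fold change of the 30 transport receptors and Ran cycle genes (points, with 95% intervals from the deposited SE), with the sign of the authors' deposited table. KPNA1, KPNA5 and KPNA6 lie right of 0 and KPNA2, KPNA3 and KPNA4 left of it; the wide interval is that of KPNA7, from −4.92 to −0.06.

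Of 7 exportins, 2 were called lower (28.6%), 2 higher (28.6%) and 3 were not called. Called either way were 57.1%, against 71.8% over the abundant genes. CSE1L, which returns importin alpha to the cytoplasm, was at −0.55 ± 0.10 in the authors' deposited table (adjusted p = 6.38e-08). XPO4, which also imports some transcription factors, was at −0.56 ± 0.09 in the authors' deposited table (adjusted p = 2.52e-09). XPO7 was at 0.35 ± 0.10 and the tRNA exporter XPOT at 0.20 ± 0.07 in the authors' deposited table, with adjusted p of 0.000751 and 0.0143. XPO1, the exporter of proteins with leucine-rich export signals, did not pass the threshold at 0.21 ± 0.12 in the authors' deposited table, with an interval from −0.02 to 0.45. XPO5, which exports microRNA precursors and overlaps POLR1C, was at 0.04 ± 0.08 in the authors' deposited table, and its interval from −0.12 to 0.19 allows only a small change. The actin exporter XPO6 stood at −0.26 ± 0.14 in the authors' deposited table (adjusted p = 0.0842).

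All 4 genes of the Ran cycle had a negative sign, and 3 were called lower (75%). Among the 7622 abundant genes 4234 had a negative sign, 40.9% were called lower and 71.8% either way. RANGAP1 had the largest value, −0.91 ± 0.08 in the authors' deposited table, with an interval from −1.08 to −0.75 and an adjusted p of 5.40e-26. RAN was at −0.25 ± 0.09 (adjusted p = 0.0128) and RANBP1 at −0.16 ± 0.06 (adjusted p = 0.0211) in the authors' deposited table. RCC1 did not pass the threshold at −0.22 ± 0.11 in the authors' deposited table (adjusted p = 0.0633). The interval of RANGAP1 did not overlap those of the other 3. RANGAP1 is overlapped by ZC3H7B and RANBP1 by TRMT2A in the annotation. NUTF2, which carries Ran back into the nucleus and is outside the rule, was at −0.56 ± 0.09 in the authors' deposited table and was called lower.

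Of 8 other transport factors, 4 were called lower (50%), none higher and 4 were not called, with a median of −0.33. Lower calls made up 40.9% of the abundant genes and 29.4% of all genes. PHAX, the adaptor for export of spliceosomal RNA, was the lowest at −1.18 ± 0.16 in the authors' deposited table. RANBP17 (−0.59 ± 0.12) and HIKESHI, a carrier of HSP70 (−0.51 ± 0.14), were lower with NUTF2 in the authors' deposited table. RANBP6 (−0.15 ± 0.21), RANGRF (−0.02 ± 0.18), RANBP3 (0.01 ± 0.07) and SNUPN (0.05 ± 0.12) were not called in the authors' deposited table.

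NXF1, the main receptor for mRNA export, was lower at −0.41 ± 0.06 in the authors' deposited table (adjusted p = 1.84e-10). Its cofactors NXT1 (−0.62 ± 0.17) and NXT2 (−0.47 ± 0.20) were lower too in the authors' deposited table. Of 19 genes of mRNA export complexes, these cofactors included, 12 were called lower (63.2%), 3 higher (15.8%) and 4 were not called, with a median of −0.34. The shares over the abundant genes were 40.9% lower and 30.9% higher. THOC7 was the lowest at −0.89 ± 0.11 and THOC6 the highest at 0.71 ± 0.31 in the authors' deposited table, and both belong to the THO complex. The helicases DDX19A and DDX19B, which act at the cytoplasmic filaments, were at −0.80 ± 0.08 and −0.82 ± 0.09 in the authors' deposited table. As close copies they may share reads. The SUMO pathway modifies RANGAP1 and docks it on RANBP2. Of 16 of its genes, 7 were called lower (43.8%), 3 higher (18.8%) and 6 were not called, with a median of −0.16. This lower share is near that of the abundant genes. PIAS4, a SUMO ligase, was the lowest at −0.92 ± 0.11 and the protease gene SENP7 the highest at 1.85 ± 0.39 in the authors' deposited table.

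Among 10 pairs of related members, the interval of the difference excluded 0 in 2. IPO7 and IPO8, close relatives, stood at −0.92 ± 0.14 and −0.07 ± 0.10 in the authors' deposited table, a difference of −0.85 with an interval from −1.18 to −0.53. TNPO1 and TNPO2 stood at −0.46 ± 0.07 and 0.21 ± 0.10 in the authors' deposited table, a difference of −0.67 with an interval from −0.91 to −0.42. They were the only pair of the 10 with opposite signs, though TNPO2 was not called. For the other 8 pairs the interval of the difference included 0, among them TNPO3 and IPO13 (−0.08, interval −0.46 to 0.29). For KPNA2 and KPNA7 the interval, from −0.56 to 4.31, is too wide to inform.

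**Figure D4:**
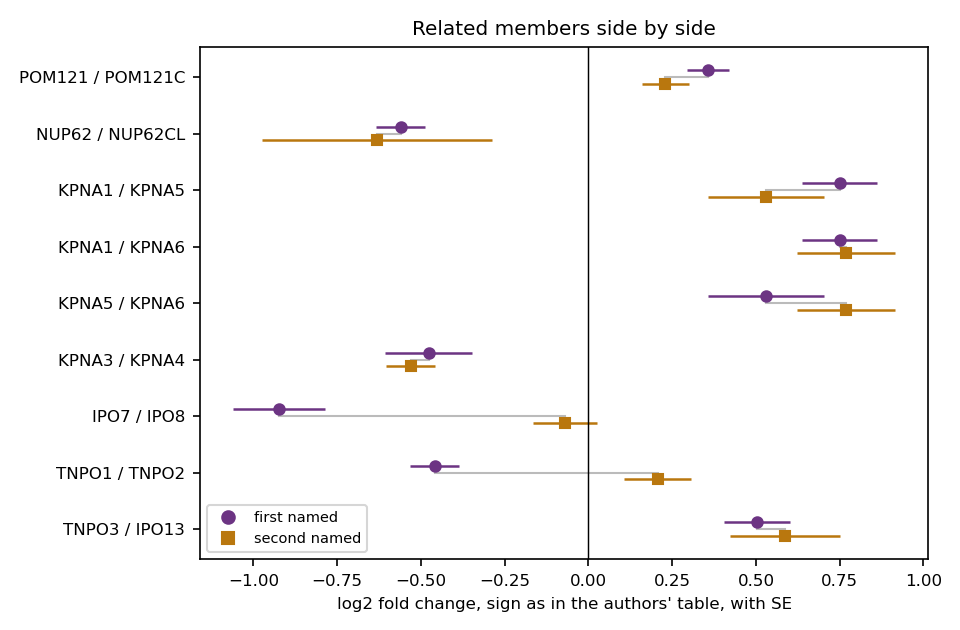
Log2 fold changes of 9 pairs of related members (first named as circles, second as squares, with the deposited SE), with the sign of the authors' deposited table. IPO7 with IPO8 and TNPO1 with TNPO2 are the pairs whose values lie farthest apart.

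Promoter windows in RefSeq, from 250 bases before to 50 bases after an annotated start, were found for 50 of the 57 members. Letters were searched on both strands: CCAAT for the CCAAT box, TTTGAA for a cell cycle homology region (CHR), GCATGCGC for NRF1, CCGGAAGT for ETS factors, AAGATGGCG for YY1, TTTCGCGC for E2F and TATAAA for a TATA box. None of these motifs contains another, and a gene with several starts counted once if any of its windows held the letters. The CCAAT box was found in 22 of the 50 members, or 44.0%, and in 42.1% of all protein-coding genes with a window. Among the 22 members with it, 15 were called lower and 1 higher, against 13 lower and 7 higher of the 28 without it. Over all genes of the table, 29.4% of those with the box and 30.9% of those without it were called lower. The CHR was found in 14 of 50 members, or 28.0%, and in 15.8% of all such genes. Of the 14 members, 11 were called lower and 1, NDC1, higher. Of the 36 members without it, 17 were called lower and 7 higher. Over all genes of the table, 28.5% of those with a CHR and 30.5% of those without it were called lower. ETS letters were found in 10 members, or 20.0%, against 6.97% of all genes, and 4 of these members were called lower and 3 higher, against 24 lower and 5 higher of the 40 without them. Over all genes of the table the order was the other way, with 40.8% of those with ETS letters and 29.2% of those without them called lower. The 3 higher members with ETS letters were TNPO3, POM121 and POM121C. POM121 and POM121C are copies that may share reads, so they may not be separate measurements. NRF1 letters were in 5 members, of which 3 were called lower and none higher, and in 4.89% of all genes. Of the 45 members without them, 25 were called lower, or 55.6%, and of the genes of the table with them 33.2% were. YY1 letters were in 5 members, NUP88, NUP160, NUP188, NUP205 and RAN, all called lower, and in 3.21% of all genes. Of the 45 members without YY1 letters 23 were called lower, or 51.1%, and of the genes of the table with them 38.7% were. E2F letters were in 2 members and TATAAA in 4, with shares of 0.940% and 12.4% in all genes. A C at the annotated start followed by 4 pyrimidines, as in mRNAs with a terminal oligopyrimidine tract, was found in IPO7, RCC1, NDC1, NUP133 and RANGAP1, of which 3 were called lower and 1 higher. This is 10.0% of members, against 6.24% of all genes. Of the 45 members without such a start 25 were called lower, or 55.6%, and of the genes of the table with it 31.1% were called lower and 28.5% higher. A match describes letters in a window and is not evidence of binding.

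The windows of NUP107 and KPNA2 are shown because these genes have the smallest adjusted p of the outer ring and of the importin alpha class. NUP107 is at chr12:68686728-68687027 and KPNA2 at chr17:68035485-68035784, both on the plus strand of GRCh38.p14. Capitals in NUP107 mark a CCAAT box, read on the other strand, and the NRF1 letters. Capitals in KPNA2 mark CCAAT boxes and CHR letters.
NUP107: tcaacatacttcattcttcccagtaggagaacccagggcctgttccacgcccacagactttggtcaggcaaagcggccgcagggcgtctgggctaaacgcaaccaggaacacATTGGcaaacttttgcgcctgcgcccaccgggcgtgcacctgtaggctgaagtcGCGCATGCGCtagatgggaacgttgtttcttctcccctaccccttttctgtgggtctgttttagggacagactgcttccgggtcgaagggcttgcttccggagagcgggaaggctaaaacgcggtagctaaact
KPNA2: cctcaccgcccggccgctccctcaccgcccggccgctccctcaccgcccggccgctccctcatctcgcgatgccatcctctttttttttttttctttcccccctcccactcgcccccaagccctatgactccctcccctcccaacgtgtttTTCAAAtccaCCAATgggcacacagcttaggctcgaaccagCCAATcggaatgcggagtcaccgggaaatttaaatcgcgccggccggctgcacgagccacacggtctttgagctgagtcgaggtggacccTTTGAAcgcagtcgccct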

How the data were processed

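The 6 samples were grouped by their titles. Per the submitters' processing notes, fastp 0.23.2, STAR 2.7.10a and featureCounts were used with hg38; their settings, the use of strand and the treatment of reads from several copies are not stated there. The authors' deposited table holds a mean of normalized counts (a signal), a fold change with SE taken as log2 from its column layout, a statistic (a score, the fold change over its SE), and the p-value and adjusted p-value, per the file headers. It holds 0 columns of values per sample, so count tests planned for that case were not run. Its adjusted p equals the Benjamini-Hochberg value within 7.42e-06. The 1 symbol with more than 1 entry kept its smaller p and was no member.

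Members were matched by Entrez ID to RefSeq (GRCh38.p14), 57 of 57; 10 overlap another protein-coding gene. Calls used the deposited adjusted p over the whole table at 0.05. Intervals of 95% are the fold change and the normal quantile times the SE. Classes were described by counts and medians, with no test of a list. Every member may be named; the highest, lowest and smallest adjusted p of each class, classes of 5 or fewer, and the highest and lowest called genes of other lists were the rule. The members, lists and roles were chosen with earlier results of these data known, and the motifs after the fold changes were seen. LBR, the SUN, NXT and DDX19 genes were named after their values were seen. The p-value adjustments were tested on simulated fold changes. Python 3.11.15, numpy 2.4.6, scipy 1.17.1, pandas 2.3.3, Biopython 1.88 and matplotlib 3.10.9 were used.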

Additional observations from a re-analysis of the deposited data

How the results depend on the processing

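Counts of called members stayed within 1.5 times at adjusted p under 0.01 or 0.1, with Benjamini-Yekutieli adjustment, in the more abundant genes alone, after centring on the median of all genes, and without members that overlap another gene, POM121 with POM121C, or RANBP2. With a change of at least 1 on the log2 scale required, 0 members were called, 0 higher and 0 lower, against 42 called by adjusted p alone; the authors' marks held 1 member, 0 up and 1 down (KPNA7). The soluble median of −0.51 became −0.41 as a mean weighted by precision. Without POM121 and POM121C the membrane median was 0.55 and its distance from the soluble median 1.07, since only NDC1 and NUP210 are then left. Without NDC1 these were 0.23 and 0.74. Leaving out RANBP2 or NDC1 was added after seeing the data. No sign of a class median changed. No paired analysis was possible because the table holds no values per sample; for the same reason leaving out replicates, other normalizations and a filter on counts were not run. Depth is unknown, and precision rests on the deposited SEs, which are widest for KPNA7 and NUP62CL.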
